A study of Mus musculus with 6 samples.

Results

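The genes described here are those of the major histocompatibility complex (MHC), which in the mouse is called H2, together with genes that load and control its molecules. They were all genes whose symbol on the array platform begins with H2-, and 16 further genes: B2m, Cd74, Ciita, Tap1, Tap2, Tapbp, Tapbpl, Psmb8, Psmb9, Psmb10, Psme1, Psme2, Nlrc5, Erap1, Cd1d1 and Calr. This gave 55 genes and 96 of the 45135 probes of the array. Their RNA was compared in colon mucosa of 3 control and 3 Dnmt3a-deleted mice, each hybridised to 1 Illumina bead array with a single biotin label. All 6 animals were C57/B6 mice of 5 months that carried APC(Min/+), a mutation that predisposes to intestinal tumours, and Dnmt3a(2lox/2lox), that is, both copies of Dnmt3a, a de novo DNA methyltransferase, flanked by sites for Cre. The Dnmt3a-deleted mice were Fabp-Cre+ and the controls Fabp-Cre-. The titles name the transgene Fabpl(4x at -132)-Cre, after the promoter of a fatty acid binding protein gene. According to the design the deletion is present in 30 to 50% of mucosa cells, so each Dnmt3a-deleted sample also holds cells that keep the gene.

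MHC class I molecules are made by nearly all nucleated cells. A heavy chain pairs with beta-2 microglobulin and shows peptides from the cell's own cytosol to CD8+ T cells: the immunoproteasome cuts the peptides, the TAP transporter carries them into the endoplasmic reticulum, and tapasin and calreticulin help to load them. MHC class II molecules, made of an alpha and a beta chain, are made mainly by dendritic cells, macrophages and B cells, and in gut epithelium under interferon gamma. They are guarded by the invariant chain Cd74, loaded by H2-DM and shown to CD4+ T cells. Ciita is the master regulator of class II genes and Nlrc5 that of class I genes, and both act through a promoter module of X and Y boxes.

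The start regions of a few members are shown because the classes are switched on through different elements in them, and because Dnmt3a acts on CpG sites. They are RefSeq sequences of assembly GRCm38.p6, from 250 bases before to 50 bases after the annotated start, written 5′ to 3′ on the strand of the gene, and 40 of the 55 members had such a window. Those of the class II chains H2-Aa, at chr17:34287774-34288073 on the minus strand, and H2-Eb1, at chr17:34305617-34305916 on the plus strand, come first. The classical class I heavy chains H2-K1, at chr17:34000298-34000597 on the minus strand, and H2-D1, at chr17:35262844-35263143 on the plus strand, follow, and B2m lies at chr2:122147437-122147736 on the plus strand. Capitals mark exact matches, on either strand, to 5 motifs: the Y box CTGATTGG, the core TGACG of the X2 box, the kappa B letters GGGATTCCC, the letters AGTTTCACT of the interferon consensus of class I promoters and the core GAAANNGAA of the interferon-stimulated response element.
H2-Aa: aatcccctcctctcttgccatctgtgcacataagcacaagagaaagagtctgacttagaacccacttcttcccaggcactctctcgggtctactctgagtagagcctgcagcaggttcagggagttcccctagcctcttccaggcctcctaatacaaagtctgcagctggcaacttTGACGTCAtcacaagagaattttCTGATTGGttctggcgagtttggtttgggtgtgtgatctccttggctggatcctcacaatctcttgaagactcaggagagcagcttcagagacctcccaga
H2-Eb1: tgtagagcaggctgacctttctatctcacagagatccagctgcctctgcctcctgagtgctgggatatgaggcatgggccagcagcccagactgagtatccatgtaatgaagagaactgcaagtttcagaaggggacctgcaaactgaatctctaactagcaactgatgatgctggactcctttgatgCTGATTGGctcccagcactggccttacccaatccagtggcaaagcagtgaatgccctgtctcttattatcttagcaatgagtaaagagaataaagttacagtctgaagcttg
H2-K1: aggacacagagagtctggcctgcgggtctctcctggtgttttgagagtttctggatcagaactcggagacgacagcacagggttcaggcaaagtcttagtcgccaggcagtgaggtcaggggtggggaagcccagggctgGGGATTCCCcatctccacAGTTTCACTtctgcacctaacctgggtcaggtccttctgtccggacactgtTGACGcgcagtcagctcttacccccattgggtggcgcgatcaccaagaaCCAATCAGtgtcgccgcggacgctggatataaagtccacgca
H2-D1: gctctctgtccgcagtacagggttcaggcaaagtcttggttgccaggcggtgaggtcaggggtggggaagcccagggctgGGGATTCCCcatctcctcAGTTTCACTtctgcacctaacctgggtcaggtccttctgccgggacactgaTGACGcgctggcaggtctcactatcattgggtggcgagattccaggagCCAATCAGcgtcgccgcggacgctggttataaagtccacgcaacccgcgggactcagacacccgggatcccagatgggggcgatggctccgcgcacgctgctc
B2m: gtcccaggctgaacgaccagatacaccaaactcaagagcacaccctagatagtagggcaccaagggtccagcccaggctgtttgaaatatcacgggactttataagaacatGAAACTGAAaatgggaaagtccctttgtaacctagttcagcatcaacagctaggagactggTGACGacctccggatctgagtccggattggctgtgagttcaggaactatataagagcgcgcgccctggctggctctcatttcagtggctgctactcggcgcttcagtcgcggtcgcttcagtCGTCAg

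The Y box letters were found in 19 of the 40 member windows, against 4.31% of all 27025 windows of the same length. They stood in 13 of 21 windows of class I heavy chains and 4 of 8 of class II genes. The X2 core is short and was present in 21.0% of all windows and in 15 of those of members. In H2-Aa the core lies on both strands within 1 stretch, and a Y box follows it. In H2-K1 and H2-D1 the order was kappa B letters, interferon consensus letters, X2 core and Y box letters, the last on the opposite strand. In H2-K1 the Y box letters lay at bases 9 to 16 after the annotated start, and in H2-D1 at -53 to -46. These are matches of letters alone. Whether they are the Y box of the X and Y module was not tested. The kappa B letters were found in 0.37% of all windows and in 4 members, the class I heavy chains H2-D1, H2-K1, H2-Q6 and H2-Q7. The interferon consensus letters occurred in 0.322% of all windows and in 7 members, all of them class I heavy chains: H2-D1, H2-K1, H2-Q6, H2-Q7, H2-Q10, H2-T3 and H2-T22. The response element core occurred in 8.57% of windows and in 5 members, B2m, Erap1, H2-T22, H2-T23 and Psme1.

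CpG sites were unevenly spread over these windows. The H2-D1, H2-K1 and B2m windows hold 19, 14 and 14 CpG sites, and those of H2-Aa and H2-Eb1 hold 3 and 0. The median was 14 over 5 class I partners, 11 over 5 immunoproteasome genes, 4 over 21 class I heavy chains and 3 over 8 class II genes, against 7 over all windows. Over the 9 class I heavy chains that were both tested and had a window the median was 9. DNA methylation was not measured in these samples. Tap1 and Psmb9 start back to back: their windows lie on opposite strands and share 275 of 300 bases.

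Of the 55 members, 38 had a probe detected above background on at least 3 of the 6 arrays and were tested, 36 of them with a probe detected on all 6. A member could pass through 1 group alone, so counts over the 38 are not counts over all 55. Both classical class I heavy chains were tested, as were 13 of the 26 other class I heavy chains, 7 of 8 class I partners, all 5 immunoproteasome genes, 4 of 5 class II chains, 5 of 7 class II partners, and Cd1d1. H2-Ke6, an H2- symbol that encodes a hydroxysteroid dehydrogenase and no MHC molecule, was tested too. The 17 genes not tested were Erap1, which trims peptides for class I, the class II chain H2-Ea, the H2-DO chains H2-Oa and H2-Ob, and the class I genes H2-M1, H2-M10.1 to H2-M10.6, H2-M5, H2-M9, H2-Q10, H2-T3, H2-T22 and H2-T24. Their log2 intensities lay between 4.16 and 5.51. For 12 of them no array detected any probe, H2-Ea among them, which C57BL/6 mice are known not to express and which RefSeq lists as a transcribed pseudogene. H2-Oa and H2-M10.1 were each detected on 2 control arrays and no Dnmt3a-deleted array, and H2-M10.3 on 2 Dnmt3a-deleted arrays and no control array.

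Before the results, facts of the whole series bear on them. None of the 3 Dnmt3a probes was detected on any array, so the arrays give no check of the deletion. Dnmt3a-deleted replicate 3 stood apart. Its mean signal was 285 against 353 to 379, its probes detected were 19339 against 20685 to 21358, and its correlations with the other arrays were 0.925 to 0.950, against at least 0.978 among the other 5. By Xist and a Y-linked gene, control replicate 1 and Dnmt3a-deleted replicates 1 and 2 were male and the other 3 mice female, so the array that stood apart is also the only Dnmt3a-deleted female.

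Values below are log2 intensities after quantile normalization, and differences are Dnmt3a-deleted minus control. With limma and Benjamini-Hochberg adjustment over 11368 genes, 0 of the 38 members passed an adjusted p of 0.05, where 1 gene of all did (0.0088%). At an unadjusted p under 0.05 stood 1 member, Tap2, against 5.25% of all genes. Adjusted p-values of members ran from 0.701 to 0.962. The 3 Dnmt3a-deleted values all lay above the 3 control values for 1 of 38 members, against 9.22% of all genes, and all below for 0 of 38, against 5.3%. A difference below 0 was found for 30 of 38, against 41.6% of all genes, and the median difference was -0.27, against 0.06 over all genes. Without Dnmt3a-deleted replicate 3 the median of the members was -0.07 and that of all genes 0.02, with 28 of 38 members below 0.

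**Figure D1:**
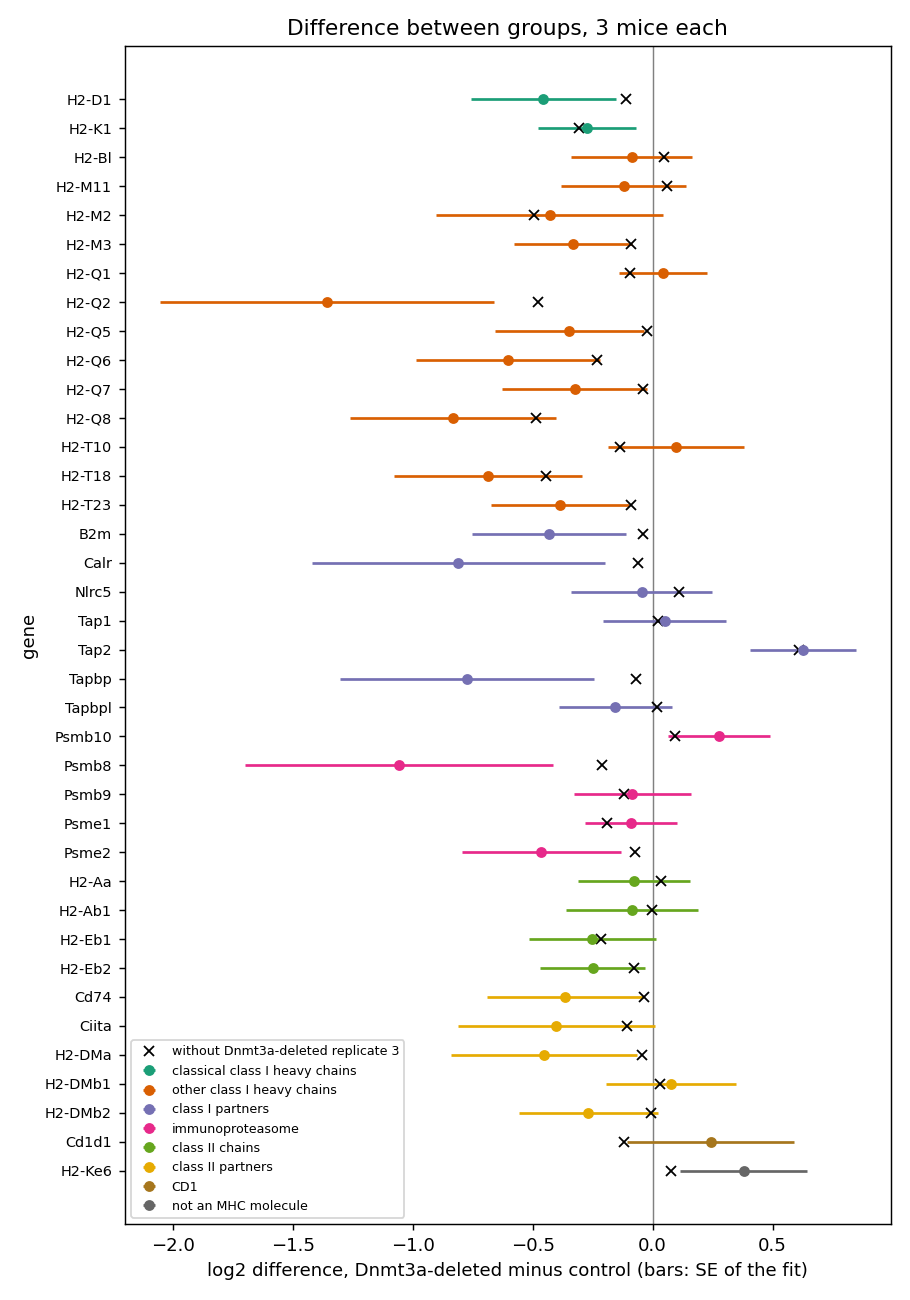
Log2 difference (Dnmt3a-deleted minus control) of each of the 38 tested MHC and antigen presentation genes, ordered by role, over all 6 arrays with its standard error and without Dnmt3a-deleted replicate 3. Of the 38 values 30 lie below 0 with all arrays, and Tap2, at 0.63, is the highest.

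Tap2, a subunit of the peptide transporter, was the member with the smallest p. Its log2 intensity was 9.41, 9.48 and 9.34 in control replicates 1 to 3, and 9.62, 10.42 and 10.07 in Dnmt3a-deleted replicates 1 to 3. The groups did not overlap, with Dnmt3a-deleted replicate 1 just above the highest control and the other 2 mice well above it. The difference was 0.63 ± 0.22 (SE, n = 3 per group; limma adjusted p = 0.701), and 0.61 without Dnmt3a-deleted replicate 3. Tap1, the other subunit, stood at 9.002, 8.79 and 9.40 in control and at 8.67, 9.51 and 9.17 in Dnmt3a-deleted mucosa. Its groups overlapped, with a difference of 0.05 ± 0.26 (SE) that was below 0 with median scaling. Psmb9, which starts beside Tap1, was at 11.74, 11.23 and 11.94 against 11.22, 11.82 and 11.62. Its difference was -0.08 ± 0.24.

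The classical heavy chains H2-K1 and H2-D1 present peptide to most CD8+ T cells. H2-D1 was at 13.81, 13.79 and 13.76 in control mucosa and at 13.43, 13.92 and 12.65 in Dnmt3a-deleted mucosa. The controls lay within a narrow band, and the Dnmt3a-deleted mice lay on both sides of it. The difference was -0.46 ± 0.30 (SE; limma adjusted p = 0.701), and -0.11 without Dnmt3a-deleted replicate 3. H2-K1 was at 11.24, 10.99 and 11.02 against 10.46, 11.11 and 10.87. Here replicates 1 and 3 of the Dnmt3a-deleted mice were below the controls, and replicate 2 within them. The difference was -0.27 ± 0.20, and -0.30 without Dnmt3a-deleted replicate 3. B2m, the light chain of class I molecules, was at 13.94, 13.91 and 14.14 against 13.84, 14.07 and 12.79. It was low in Dnmt3a-deleted replicate 3, with a difference of -0.43 ± 0.32 over all arrays and -0.04 without that one.

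The other class I heavy chains are the H2-Q, H2-T and H2-M genes, several of which act as ligands of unconventional T cells or NK receptors. Differences below 0 were found for 11 of 13 tested. H2-Q2 had the lowest of all members, at 8.86, 8.36 and 8.73 in control and at 7.59, 8.76 and 5.54 in Dnmt3a-deleted mucosa, a difference of -1.36 ± 0.70. The Dnmt3a-deleted mice were spread far wider than the controls and overlapped them, and without replicate 3 the value was -0.48. H2-Q8 had a difference of -0.83 ± 0.43, H2-T18 -0.69 ± 0.39 and H2-Q6 -0.60 ± 0.38. H2-T23, the mouse Qa-1 heavy chain and a ligand of NKG2A receptors, was at -0.38 ± 0.29, and H2-M3, which presents formylated peptides, at -0.33 ± 0.24. Without Dnmt3a-deleted replicate 3, H2-Q8 was at -0.49, H2-T18 at -0.44, H2-Q6 at -0.23, H2-T23 at -0.09 and H2-M3 at -0.09. Over all arrays H2-M2, H2-Q5, H2-Q7, H2-M11 and H2-Bl lay between -0.43 and -0.09. H2-T10 and H2-Q1 were at 0.10 and 0.04, and both below 0 with median scaling. RefSeq lists H2-Bl, H2-Q5 and H2-T10 as transcribed pseudogenes. Heavy chains of this family are nearly identical in long stretches, so a probe named for one may also bind RNA of another, and single members of the H2-Q and H2-T groups are uncertain.

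Of the remaining class I partners, Tapbp, or tapasin, was at 8.11, 8.02 and 8.28 in control and at 8.02, 8.12 and 5.95 in Dnmt3a-deleted mucosa. Replicate 1 was level with the lowest control. Replicate 3 was far below the others, and the difference was -0.78 ± 0.53 with it and -0.07 without it. On a second kept probe Tapbp was at 7.88, 8.70 and 7.82 against 7.70, 7.70 and 5.70. There all 3 Dnmt3a-deleted values lay below the controls, with a difference of -1.10, and -0.43 without replicate 3. Calr, the chaperone calreticulin, was at 9.20, 9.29 and 10.11 against 9.11, 9.84 and 7.23, with differences of -0.81 ± 0.61 and, without that array, -0.06. Tapbpl, a second editor of class I peptides, was at -0.15 ± 0.23. Nlrc5, the class I regulator, was at 7.57, 7.10 and 8.16 in control and at 7.53, 7.91 and 7.26 in Dnmt3a-deleted mucosa. All 3 Dnmt3a-deleted values were within the control range, and the difference was -0.04 ± 0.29.

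The immunoproteasome genes varied unevenly between mice. Psmb8, a catalytic subunit, was at 12.66, 12.38 and 12.90 in control and at 12.17, 12.70 and 9.89 in Dnmt3a-deleted mucosa, with a difference of -1.06 ± 0.64, and -0.21 without replicate 3. Psmb10, also catalytic, was at 12.71, 12.33 and 12.69 against 12.63, 12.71 and 13.22. It was highest on the array where Psmb8 was lowest, with a difference of 0.28 ± 0.21. A second kept probe of Psmb10 was at 12.30, 11.98 and 12.34 against 12.39, 12.47 and 13.01. There all 3 Dnmt3a-deleted values lay above the controls, with a difference of 0.42, and 0.23 without replicate 3. Psme1, a subunit of the 11S activator, was at 12.60, 12.17 and 12.57 against 12.17, 12.34 and 12.56. Its partner Psme2 was at 9.97, 9.65 and 10.04 against 9.65, 9.98 and 8.65. Their differences were -0.09 ± 0.19 and -0.46 ± 0.33, or -0.19 and -0.07 without Dnmt3a-deleted replicate 3. On these probes the subunits of a single complex did not share their order over the arrays. A second kept probe of Psme1 was at 11.91, 11.64 and 11.71 against 11.73, 11.90 and 11.55. Like Psme2 it was lowest on Dnmt3a-deleted replicate 3 and next lowest on control replicate 2.

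**Figure D2:**
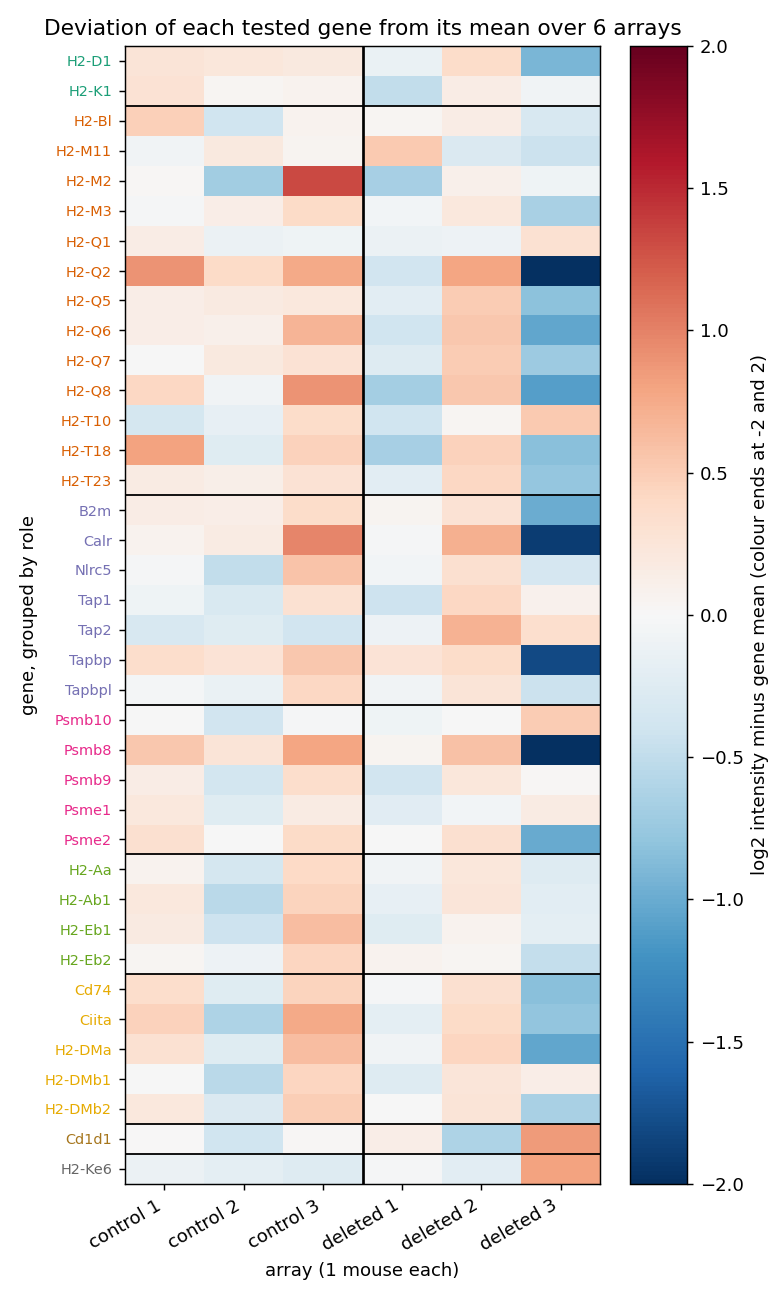
Log2 intensity of each tested MHC and antigen presentation gene on each of the 6 arrays, as the deviation from the gene's mean over the arrays, with genes grouped by role. The Dnmt3a-deleted replicate 3 column is the lowest of 6 for 21 of the 38 genes, and within class II the control replicate 2 column is low in every row.

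All 4 tested class II chains had differences below 0, each smaller than its standard error or close to it. H2-Aa, the alpha chain of I-A, was at 11.49, 11.07 and 11.82 in control and at 11.34, 11.64 and 11.16 in Dnmt3a-deleted mucosa, a difference of -0.08 ± 0.23 (SE). H2-Ab1, its beta chain, was at 13.77, 13.02 and 14.01 against 13.40, 13.80 and 13.35, a difference of -0.09 ± 0.27. For both, on the probe used, the Dnmt3a-deleted mice lay wholly within the range of the controls. The other kept probes of H2-Ab1 differed. On one, Dnmt3a-deleted replicates 1 and 3, at 12.53 and 10.57, were below the lowest control, at 12.75. On the other, replicate 3 was at 11.44, below the lowest control at 11.78. H2-Eb1, the beta chain of I-E, was at 11.97, 11.39 and 12.41 against 11.55, 11.86 and 11.60, a difference of -0.25 ± 0.26. It too lay within the controls. H2-Eb2, a related beta chain gene, was at 5.41, 5.27 and 5.80 against 5.43, 5.40 and 4.90, and its difference was -0.25 ± 0.22. Without Dnmt3a-deleted replicate 3 H2-Eb1 was at -0.22 and H2-Eb2 at -0.08.

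Among the class II partners 4 of the 5 tested were below 0. Cd74, the invariant chain, was at 14.25, 13.65 and 14.34 in control and at 13.88, 14.21 and 13.06 in Dnmt3a-deleted mucosa, a difference of -0.37 ± 0.32. Ciita was at 8.73, 7.65 and 9.03 against 8.08, 8.65 and 7.48, a difference of -0.40 ± 0.41. In both, Dnmt3a-deleted replicate 3 was lowest, and control replicate 2 was the lowest of the other 5 arrays. H2-DMa, the alpha chain of the peptide editor H2-DM, was at 11.71, 11.17 and 12.03 against 11.34, 11.85 and 10.36, a difference of -0.45 ± 0.39. H2-DMb1 was at 10.81, 10.28 and 11.25 against 10.56, 11.06 and 10.95, a difference of 0.08 ± 0.27 that was below 0 with median scaling. H2-DMb2, the other beta chain, was at 11.18, 10.69 and 11.46 against 10.97, 11.23 and 10.32, a difference of -0.27 ± 0.29. Without Dnmt3a-deleted replicate 3 Cd74 was at -0.04, Ciita at -0.11, H2-DMa at -0.04 and H2-DMb2 at -0.0083. The alpha chain and 1 beta chain of H2-DM were lowest on that array, and the other beta chain was not.

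The remaining members lay apart from both classes. Cd1d1, which presents lipids to NKT cells, was at 6.36, 5.96 and 6.39 in control and at 6.49, 5.74 and 7.20 in Dnmt3a-deleted mucosa, a difference of 0.24 ± 0.35. H2-Ke6 was at 10.34, 10.26 and 10.19 against 10.44, 10.25 and 11.25, a difference of 0.38 ± 0.27. Both were highest in Dnmt3a-deleted replicate 3, without which they were at -0.12 and 0.08.

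The classes were then set side by side. Class I, counted over 22 tested heavy chains and partners without the immunoproteasome, had 18 genes below 0 and a median difference of -0.34. Class II, over 9 tested genes, had 8 below 0 and a median of -0.25. Class I minus class II was -0.09. Without Dnmt3a-deleted replicate 3 the medians were -0.08 and -0.04, with 16 of 22 and 7 of 9 below 0. Leaving out that array thus moved both class medians by more than 1.5 times, and leaving out control replicate 2 turned class I minus class II to 0.14. By array, the median deviation of class I genes from their own means was 0.13, 0.07 and 0.37 in the controls, against -0.17, 0.37 and -0.69 in Dnmt3a-deleted replicates 1 to 3. That of class II was 0.20, -0.35 and 0.45 against -0.08, 0.24 and -0.47. The group ranges of either class overlapped, and over all genes the same medians stayed between -0.04 and 0.08.

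The classes differed in which mice were low. Dnmt3a-deleted replicate 1 lay below all 3 controls for 16 of 22 class I genes and 0 of 9 class II genes, against 21.2% of all genes tested. These counts take 1 probe per gene, and on another kept probe of H2-Ab1 that replicate lay below all controls. Some of the 16 were near ties: H2-Q1 was at 6.278 against a lowest control of 6.282, and Tapbp at 8.017 against 8.019. H2-Q and H2-T probes, which may bind each other's RNA, also count there as separate genes. Dnmt3a-deleted replicate 2 lay within the range of the controls for 15 of 22 and 9 of 9, against 54% of all genes. Dnmt3a-deleted replicate 3 lay below all controls for 15 of 22 and 5 of 9, against 30.9%, and was the lowest of the 6 arrays for 21 of the 38 members, against 27.4%, and the highest for 5, against 40.1%. Genes at large were thus more often highest than lowest on that array, and the members more often lowest. These orders were noticed in the values and are descriptions without a test.

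Class II genes shared 1 order among the other 5 arrays. Control replicate 2 was the lowest and control replicate 3 the highest of those 5 for 9 of 9 class II genes, against 3 of 22 class I genes (H2-M2, Nlrc5 and Tapbpl), Psme2 of the immunoproteasome, and 6.25% of all genes. This too takes 1 probe per gene. On another kept probe of H2-Ab1 the lowest of those 5 was Dnmt3a-deleted replicate 1. The spread within the groups differed too. The median SD over the controls was 0.433 for class II, 0.231 for class I and 0.177 for all genes, and over the Dnmt3a-deleted mice 0.301, 0.557 and 0.267. Of the class I genes, 19 of 22 varied more among Dnmt3a-deleted than among control mice, against 4 of 9 class II genes and 66.6% of all genes. These SDs include Dnmt3a-deleted replicate 3. It was the lowest of the 6 arrays for 14 of 22 class I and 5 of 9 class II genes, against 27.4% of all genes. SDs without it were not computed. For all 9 class II genes, on the probe used, control replicates 2 and 3, mice of the same genotype and both female, differed by more than the group means did. That follows in part from the order above, and no share over all genes is given for it.

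**Figure D3:**
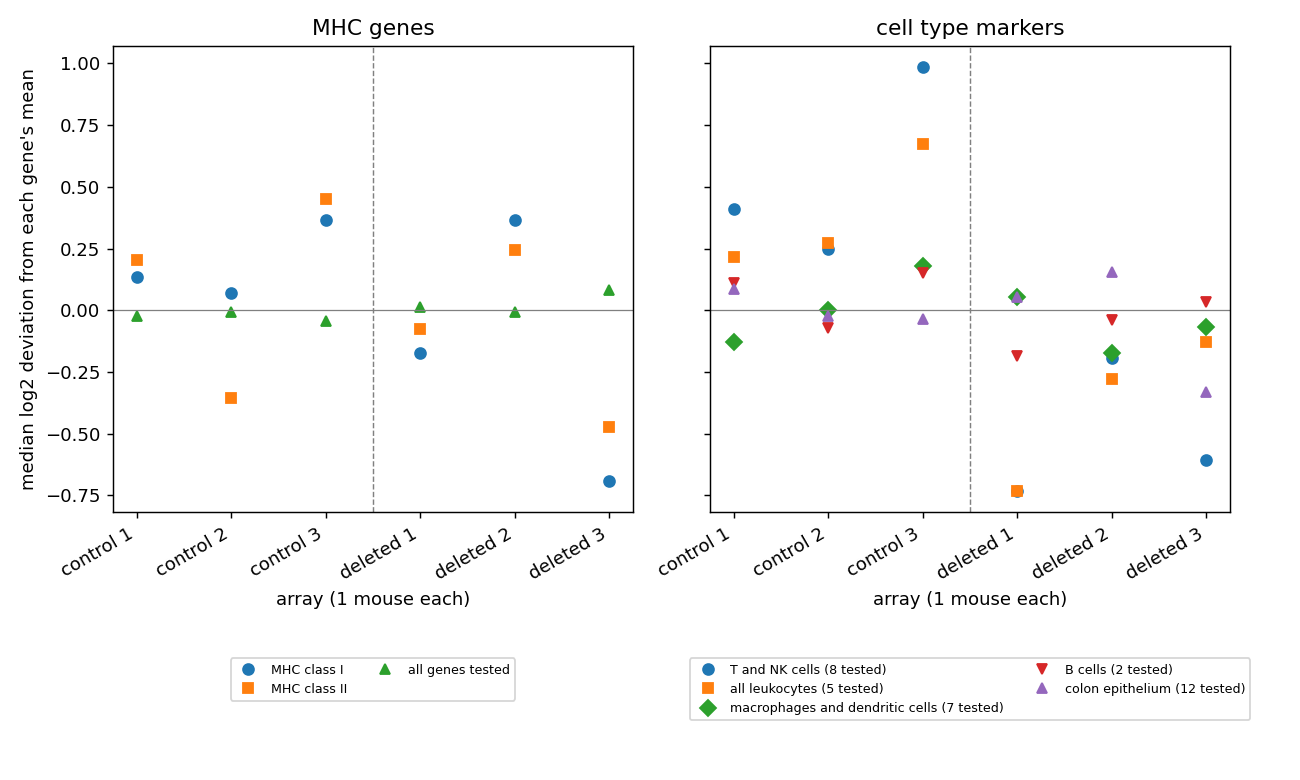
Median log2 deviation from each gene's mean over the 6 arrays, by array, for class I, class II and all tested genes (left) and for cell type markers (right). Class II is at -0.35 in control replicate 2 and 0.45 in control replicate 3. The median of T and NK cell markers is higher in all 3 control than in all 3 Dnmt3a-deleted mice, though Cd8b1 among them goes the other way.

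Cells of the immune system are among those that make class I and class II molecules, so their markers were read on the same arrays. How much of the RNA of either class came from them or from epithelium was not measured. In a bulk sample fewer cells of a type and less RNA per cell cannot be told apart. Of 8 tested T and NK cell markers (of 11 on the array), 7 had a difference below 0. The groups did not overlap for 7: the Dnmt3a-deleted mice were lower for 6, against 5.3% of all genes, and higher for 1, Cd8b1, a chain of CD8, at 0.43 ± 0.19, against 9.22%. With limma 0 of the 8 passed, the smallest adjusted p being 0.477, and 7 had an unadjusted p under 0.05, against 5.25% of all genes. Their median was -1.16, and -1.08 without Dnmt3a-deleted replicate 3. Their summed intensity was 4077 to 7447 in control and 3371 to 4998 in Dnmt3a-deleted mucosa. In the Dnmt3a-deleted mice Cd8b1, at log2 11.26, 11.63 and 11.38, made up most of it, so the sum says little of the other markers. The 5 markers of all leukocytes had a median of -0.87, and their sum was 1852 to 2454 against 893 to 1555. Dnmt3a-deleted replicate 1 lay below all controls for 16 of 22 class I genes, near ties included. It was below them for 7 of the 8 T and NK markers and 5 of the 5 leukocyte markers, against 21.2% of all genes. The same held for 5 of 12 epithelial markers and 0 of 7 macrophage and dendritic cell markers. The part of any of these cells in the class I values was not tested.

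The cells best known for class II were less well measured. Of 7 tested macrophage and dendritic cell markers, of 14 on the array, 4 were below 0, with a median of -0.01. Their sums were 1252 to 1628 against 1024 to 1868, mostly from Cd14, at log2 9.61 to 10.63. The other markers tested lay between 4.91 and 6.68, and none of them was detected on all 6 arrays. Among those not tested were Cd68, Adgre1, Itgam, Itgax, Xcr1, Cd209a, Clec9a and Fcgr1. Of the B cell markers only Cd79b and Ms4a1 were tested of 6 on the array, both near background with sums of 86.7 to 100.1 against 79.2 to 92.0, and Cd79a and Pax5 were among those not tested. On the 5 arrays class II had control replicate 2 lowest and control replicate 3 highest. That order was shared by 1 of these 7 macrophage and dendritic cell markers, Flt3, which lay between 4.91 and 5.32, near background. It was shared by 0 of the B cell, T and NK cell or leukocyte markers. The part of such cells in the class II values was not tested. Epithelial markers, all 12 of them tested, had a median of -0.08, with sums of 93033 to 99837 in control and 75066 to 105108 in Dnmt3a-deleted mucosa. Their median deviation was lowest on Dnmt3a-deleted replicate 3, at -0.33, but the markers were divided. On that array Car1, Epcam, Vil1, Krt19, Krt20 and Cdx1 were at their lowest, and Slc26a3, Krt18, Cdh1 and Muc2 at their highest. Krt8 and Cdx2 were neither. Of the plasma cell markers 3 of 4 tested were below 0 (median -0.23), of those of smooth muscle and stroma 0 of 4 (median 0.16), and 0 of 4 endothelial markers were tested.

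Further genes of the pathway were read from a list of 47, of which 36 were tested. The test was passed by 0, and 1 had an unadjusted limma p under 0.05, against 5.25% of all genes. Of the 36, 18 were below 0, with a median of 0.01, so the shift of the members was not seen in this list. The groups did not overlap for 5 of 36, all higher, against 9.22% of all genes: Rfxank, a subunit of the factor that binds the X box, at 0.39 ± 0.16; Psme3, an alternative proteasome activator, at 0.33 ± 0.15; Tpp2, a cytosolic peptidase, at 0.46 ± 0.25; Pomp, a proteasome assembly factor, at 0.29 ± 0.17; and Sec61a1, a translocon subunit, at 0.21 ± 0.15. Interferon gamma itself, Ifng, was at 5.57, 5.79 and 6.06 in control and at 5.48, 5.65 and 5.17 in Dnmt3a-deleted mucosa. Its groups overlapped, with a difference of -0.38 ± 0.20. The receptor chain Ifngr2 was at 0.92 ± 0.48 and the kinase Jak2 at -0.77 ± 0.40, both with Dnmt3a-deleted replicate 3 far from the other 5 arrays and at 0.30 and -0.29 without it. Without that array Tpp2 was at 0.18, Pomp at 0.17 and Ifng at -0.24.

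The class II order of the 5 arrays was shared by 5 of the 36 further genes, namely Cd274, Ctsb, Irf1, Irf8 and Nfyc. Irf1, an interferon-induced factor, was at 12.84, 12.32 and 13.18 in control and at 12.57, 12.81 and 12.86 in Dnmt3a-deleted mucosa. Irf8, a factor of myeloid and B cells, was at 9.84, 9.28 and 10.05 against 9.30, 9.77 and 9.21. In both the control mice spanned more than the group means differed, as in class II, a comparison given without its share over all genes. The likeness is that of 1 order over 5 arrays, and it says nothing of shared control.

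Several members had more than 1 kept probe, so their probes could be compared. For 19 members the range of the probes' deviations on an array had a median of 0.351 in Dnmt3a-deleted replicate 3 and of 0.148 to 0.197 on the other arrays. Over the 4271 genes of the array with more than 1 kept probe it was 0.535 against 0.174 to 0.230, so this wider disagreement on that array was not confined to MHC genes. It was widest for H2-T10, at 2.00, H2-Ab1, at 1.76, Ciita, at 1.36, Psmb8, at 1.28, and H2-K1, at 1.12. The 3 probes of H2-Ab1 gave differences from -1.08 to -0.09, the 3 of H2-T10 from -0.96 to 0.10, the 3 of H2-K1 from -0.66 to 0.15 and the 2 of Ciita from -0.40 to 0.22. The second probe of Psmb8 gave -0.26 beside the -1.06 of the first, and 0.14 beside -0.21 without Dnmt3a-deleted replicate 3. The 3 probes of H2-D1 lay closer together, from -0.59 to -0.46, as did the 2 of B2m, from -0.52 to -0.43. Read by probe, 53 of 64 member probes were below 0 with a median of -0.33, of which 33 of 38 in class I and 14 of 16 in class II, and 0 passed the limma test with 1 at an unadjusted p under 0.05. Of all 21183 kept probes 9781 were below 0 with a median of 0.02, 1 passed and 1043 had an unadjusted p under 0.05.

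**Figure D4:**
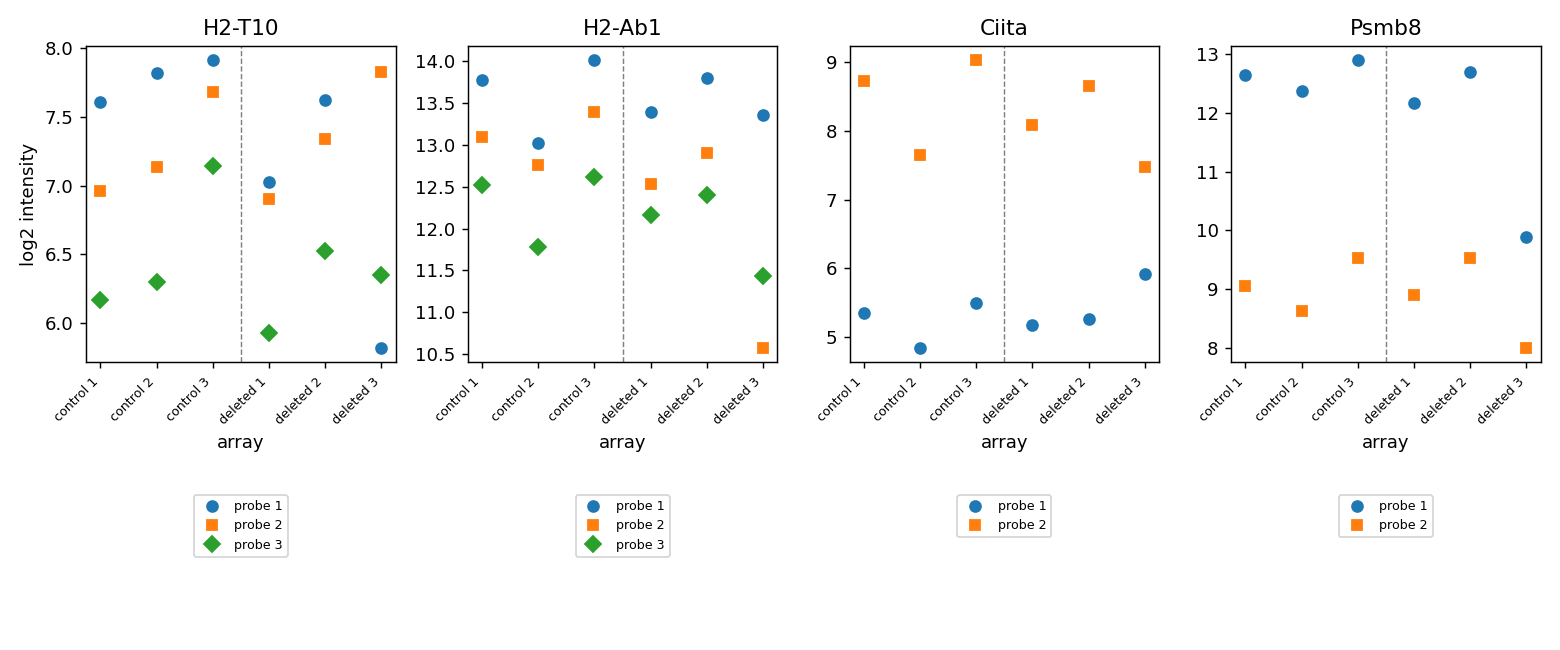
Log2 intensity of each kept probe of H2-T10, H2-Ab1, Ciita and Psmb8 on the 6 arrays. These genes were chosen as those whose probes part most on Dnmt3a-deleted replicate 3, by 2.00 for H2-T10 and 1.76 for H2-Ab1 (range of deviations). On the other arrays the range was smaller, but it reached 0.69 for H2-T10 and 0.75 for H2-Ab1, both on control replicate 2.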

How the data were processed

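Total RNA of colon mucosa from 6 mice, 3 per group, each with its own animal number in the labels, was hybridised to 1 array each. Column extraction, a DNase step, a Bioanalyser check and amplification to biotinylated cRNA came first, per the labels. The authors deposited an unprocessed signal intensity per probe with a detection p-value beside it, and a table of processed intensities; the normalization behind those deposited intensities is not given in the sources used here, nor is the scanner. The deposited detection p-value was small for dim probes as well (6320 to 7410 per array), so a probe counted as detected only with p under 0.05 and a signal above background, taken on each array as the median of probes whose p exceeded 0.97.

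Intensities were corrected with normexp (saddle-point parameters, offset 16), quantile normalized and log2 transformed with limma 3.58.1 in R 4.3.3. Probes detected on at least 3 of 6 arrays were kept (21183), and a gene was its kept probe with the highest mean. Symbols came from the platform annotation (34773 probes with 1 symbol, 18 with several, 10344 not named here), updated with RefSeq for 34695 by gene number and 11 by accession; 67 were kept as given. Groups were compared with lmFit and eBayes, 2-sided, with Benjamini-Hochberg adjustment over 11368 genes. The fit was tested on simulated data. The precision is limited by 3 arrays per group.

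The members, gene lists and tests were chosen with earlier results of these data known. Every member is named; values by array are given for class II genes, B2m, H2-K1, H2-D1, Nlrc5, Tap1, the immunoproteasome and members whose groups do not overlap, and H2-Q2, Tapbp, Calr, Cd1d1 and H2-Ke6 were added after their values were seen, as were Cd8b1 of the markers and Irf1 and Irf8 of the pathway list. Of that list the 6 genes of smallest p and those whose groups do not overlap are otherwise given. Alternatives changed the background correction, offset, normalization, filter, probe rule, variance moderation, array weights and covariates, or left out each array. A test of all kept probes was added after the data had been seen.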

Additional observations from a re-analysis of the deposited data

How the results depend on the processing

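The count of members past the adjusted p of 0.05 (limma) was 0 under each of the 19 alternatives and over all kept probes. The median differences of class I and class II kept their sign in all of these, from -0.62 to -0.08 and from -0.48 to -0.04 when 1 array was left out, while class I minus class II ran from -0.27 to 0.14 and was 0.11 with no filter on dim probes. Over all genes the count of calls was 1, but 15 with array weights, and 0 to 1 when 1 array was left out (0 without control replicate 2). Median scaling moved the median of all genes from 0.06 to -0.05, with 34 of 38 members below 0, 0 of them at an unadjusted p under 0.05. That count of members was 8 with sex as a term (14.5% of all genes), 5 with array weights (19.5%) and 11 without Dnmt3a-deleted replicate 2 (11.8%), but 0 without control replicate 1 or 3. With the replicate number as a block 1 gene and 0 members were called, with medians of -0.34 and -0.25. The numbers did not pair the mice: same-numbered arrays correlated at -0.12, -0.11 and 0.04, and 2 of 6 arrays correlated best with their own number.

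Of 720 values of single genes 685 kept their direction and side of the threshold. H2-Q1 turned to -0.0067 with the authors' processed values, -0.011 with loess, -0.14 with median scaling and -0.14 with array weights, H2-DMb1 to -0.037 with median scaling and -0.14 with weights, and Tap1 to -0.083 and -0.25. H2-T10 turned to -0.090 with median scaling, -0.38 with the mean of its probes and -0.18 with weights, and H2-M11 to 0.39 with weights. Leaving out 1 array turned the sign of further genes, with ranges of -0.12 to 0.61 for Cd1d1, -0.27 to 0.10 for H2-Aa, -0.37 to 0.12 for H2-Ab1, -0.31 to 0.13 for H2-Bl, -0.17 to 0.31 for H2-DMb1, -0.42 to 0.061 for H2-M11, -0.88 to 0.12 for H2-M2, -0.094 to 0.13 for H2-Q1, -0.14 to 0.33 for H2-T10, -0.30 to 0.23 for Nlrc5, -0.29 to 0.085 for Psmb9, -0.23 to 0.0052 for Psme1, -0.15 to 0.27 for Tap1 and -0.32 to 0.018 for Tapbpl. The causes were not tested. A fit with slide or scan as a block was not run, since neither was used here.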
